A study of Mus musculus with 4 samples.

Results

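Inflammatory monocytes of LKPR mouse skin tumours were chosen cell by cell from the UMI counts of 4 single-cell libraries. UMIs are counts of captured RNA molecules. A cell was taken with at least 3 UMIs of Lyz2, at least 1 of Ccr2 and at least 2 of Ly6c2 and Chil3 together. It could hold at most 3 UMIs of C1qa, C1qb and C1qc together, at most 10 of S100a8 and S100a9 together and none of Cd3e. Cells with fewer than 200 genes or with 20% or more mitochondrial UMIs had been left out. This gave 641 monocytes among 50887 kept cells. Of these, 81 of 16617 and 362 of 16914 cells came from NP137 1 and NP137 2, and 118 of 11677 and 80 of 5679 cells from control 1 and control 2.

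Droplet RNA sequencing was run on sorted living cells, with no further gate, from the tumours of LKPR mice. These mice carry Lgr5CreER, p53fl/fl and Rosa26-YFP+/+. After tamoxifen p53 is lost and YFP expressed in cells descended from those with Lgr5. Both groups carried these alleles and received 4 daily tamoxifen injections of 2.5 mg at postnatal day 28. The NP137 group, with 2 libraries, also received NP137, an antibody against netrin-1, given into the peritoneum every 2 days at 10 mg/kg, starting 4 weeks after the tamoxifen. The control group, with 2 libraries, is labelled as control with no treatment named. Tumours were seen 7 to 9 weeks after the tamoxifen, and the labels give neither the age at sampling nor whether a library is 1 mouse. All p-values below therefore measure only the spread between these 4 samples. The Cre is driven from Lgr5, a gene of hair follicle stem cells and not of blood cells.

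Inflammatory monocytes are blood cells that leave the bone marrow by the chemokine receptor Ccr2, enter inflamed tissue and carry the surface protein Ly6C. In skin and in tumours they can become macrophages or dendritic cells, and on the way they lose Ly6C and gain genes such as those for complement C1q and antigen presentation. Patrolling monocytes are a separate blood form that depends on the nuclear receptor Nr4a1 and carries Cx3cr1.

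The marker genes are Chil3 (ENSMUSG00000040809, chr3:106147554-106167564, minus strand), a secreted chitinase-like protein, Ccr2 (ENSMUSG00000049103, chr9:124101950-124113557, plus strand), Ly6c2 (ENSMUSG00000022584, chr15:75108158-75111970, minus strand), Ms4a4c (ENSMUSG00000024675, chr19:11404770-11427246, plus strand), a membrane protein of the Ms4a family, and Cybb (ENSMUSG00000015340, chrX:9435252-9487771, minus strand), the catalytic subunit of the phagocyte oxidase. All 5 are protein-coding genes at mm10 positions of GENCODE M21. Their promoters are shown because these genes define the cells. Each is 300 bases around the start that RefSeq gives on GRCm38.p6, read 5′ to 3′ on the gene's strand, and all 5 were matched by symbol. Capitals mark matches, on either strand, to GAGGAA, a core bound by the myeloid factor PU.1, TTGCNNAA, a C/EBP-type core, or an interferon-response type element (GAAA, any 2 bases and GAAA again).
Chil3 (chr3:106167515-106167814): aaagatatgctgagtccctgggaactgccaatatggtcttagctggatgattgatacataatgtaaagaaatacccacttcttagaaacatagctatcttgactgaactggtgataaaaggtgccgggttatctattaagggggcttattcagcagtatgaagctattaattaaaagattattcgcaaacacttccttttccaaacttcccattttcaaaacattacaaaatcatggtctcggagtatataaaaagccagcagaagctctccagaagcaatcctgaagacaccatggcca
Ccr2 (chr9:124101933-124102232): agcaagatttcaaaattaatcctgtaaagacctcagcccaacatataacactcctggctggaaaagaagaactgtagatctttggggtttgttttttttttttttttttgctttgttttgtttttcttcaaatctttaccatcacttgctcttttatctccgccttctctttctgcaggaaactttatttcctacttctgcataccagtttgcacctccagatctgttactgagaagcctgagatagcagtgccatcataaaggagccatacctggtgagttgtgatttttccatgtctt
Ly6c2 (chr15:75111922-75112221): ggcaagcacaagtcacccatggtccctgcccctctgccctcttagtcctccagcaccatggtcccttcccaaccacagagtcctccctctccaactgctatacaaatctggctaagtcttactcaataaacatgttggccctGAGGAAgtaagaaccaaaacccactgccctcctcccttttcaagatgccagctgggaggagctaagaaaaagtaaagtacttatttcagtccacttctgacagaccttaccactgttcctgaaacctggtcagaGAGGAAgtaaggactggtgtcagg
Ms4a4c (chr19:11407411-11407710): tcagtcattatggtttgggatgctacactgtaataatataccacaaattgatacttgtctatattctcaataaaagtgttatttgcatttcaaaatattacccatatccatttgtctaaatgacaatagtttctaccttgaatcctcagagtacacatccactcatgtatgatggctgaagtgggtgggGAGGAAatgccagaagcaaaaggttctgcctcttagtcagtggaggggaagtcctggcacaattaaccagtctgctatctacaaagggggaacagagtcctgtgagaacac
Cybb (chrX:9469275-9469574): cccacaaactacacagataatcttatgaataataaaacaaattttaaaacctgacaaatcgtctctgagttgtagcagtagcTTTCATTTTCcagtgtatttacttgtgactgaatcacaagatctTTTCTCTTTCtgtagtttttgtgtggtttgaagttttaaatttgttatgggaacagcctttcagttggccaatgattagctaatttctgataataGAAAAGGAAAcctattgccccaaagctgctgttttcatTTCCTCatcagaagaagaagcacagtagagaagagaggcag
GAGGAA was found 2 times in the window of Ly6c2 and 1 time each in those of Ms4a4c and Cybb. The Cybb window also held 3 matches to the interferon-response element, and no matches overlapped. TTGCNNAA was in none of the 5 windows, and the windows of Chil3 and Ccr2 held none of the 3 motifs. Of all 32851 promoters in the same table, 28.3% held GAGGAA, 10.8% TTGCNNAA and 3.44% the interferon-response element, so these matches are a description of letters only. The starts of Ccr2, Ms4a4c and Cybb in RefSeq lie inside the gene spans of GENCODE.

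The monocytes were few and differed in depth. They summed to 201826 and 2219929 UMIs in NP137 1 and NP137 2 and to 598817 and 722835 UMIs in control 1 and control 2. A single UMI is therefore worth 4.95 CPM in NP137 1 and 0.450 to 1.67 CPM in the other libraries, where CPM is the number of UMIs per 1000000 UMIs of the class in that library. The median monocyte held 1955 and 4493 UMIs in the NP137 libraries and 4228.5 and 8529 UMIs in the control libraries. Doublets were the kept cells of highest Scrublet score, at a set share of 0.8% per 1000 barcodes of the library. The share removed was thus fixed by the number of barcodes. It took 11 and 63 of the NP137 monocytes and 6 and 4 of the control ones. These are 13.6% and 17.4% against 5.08% and 5.00%, beside 14.5% and 14.2% against 10.2% and 6.66% of all kept cells. A YFP UMI was in 14 and 17 of the NP137 and in 30 and 9 of the control monocytes. In NP137 1 Xist alone was read in 21 members and Y-linked genes alone in 12. Xist alone was read in 284 members of NP137 2 and 95 of control 1, and Y-linked genes alone in 0 of either. In control 2 Y-linked genes alone were read in 54 members and Xist alone in 0, so the control libraries differed in this. Both were read in 1 member of NP137 1 and 1 of control 2. Files of NP137 1 and control 1 bear the same date, and those of NP137 2 and control 2 bear later, different ones. Between 24 and 86 barcodes were shared by each pair of libraries, and none was a monocyte in both.

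The thresholds cut through continuous values. Ccr2 divided most: 192 members held a single Ccr2 UMI, and 284 cells met every other condition with 0. For Ly6c2 and Chil3 together, 96 members held 2 UMIs and 120 cells just outside held 1. For the C1q genes 15 members held 3 UMIs and 6 cells outside held 4. Lyz2 gave 12 members at 3 UMIs and 13 cells outside at 2, the S100a8 and S100a9 sum 2 members at 10 and 4 cells outside at 11, and 16 cells were outside for 1 Cd3e UMI alone.

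Chil3, Ccr2 and Ly6c2 were high because the rule used them, and their levels are given as a description. Chil3 stood at 3736 and 944 CPM in NP137 monocytes and at 3457 and 2631 CPM in control monocytes. NP137 2 was the low library, and the other 3 lay between 2631 and 3736 CPM. Ccr2 stood at 619 and 645 CPM in NP137 monocytes against 404 and 757 CPM in control monocytes, and Ly6c2 at 258 and 433 CPM against 282 and 455 CPM. The groups overlapped for both genes.

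Ms4a4c and Cybb were not part of the rule. Ms4a4c stood at 332 and 454 CPM in NP137 monocytes and at 291 and 457 CPM in control monocytes. Cybb stood at 466 and 524 CPM in NP137 monocytes and at 551 and 711 CPM in control monocytes, with the groups not overlapping. For NP137 over control none of the 5 markers passed edgeR's quasi-likelihood test, with adjusted p = 0.999 for each. Their log2 fold changes were -0.37 for Chil3, 0.12 for Ccr2, -0.09 for Ly6c2, 0.07 for Ms4a4c and -0.35 for Cybb. With each cell thinned to 2000 UMIs, Ms4a4c was found in 51.5% and 59.8% of NP137 monocytes and in 40.9% and 58.8% of control monocytes. C1q macrophages, the complement-rich class described below, gave 8.13% and 29.3% under NP137 and 6.97% and 28.7% in control. Cybb was found in 51.5% and 60.3% of NP137 and in 69.1% and 60% of control monocytes. In YFP cells, which should lack Cybb, the shares were 0.390% and 0.955% under NP137 and 0.436% and 0.0915% in control. Their median depths before thinning were 9638 and 22571.5 UMIs under NP137 and 12813 and 27568 UMIs in control. Thinning left out 48 and 14 of the NP137 monocytes and 8 and 0 of the control ones. Unthinned, Ms4a4c was found in 49.4% and 78.2% of NP137 and in 61.9% and 83.8% of control monocytes, and Cybb in 63.0% and 81.8% against 84.7% and 90.0%.

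The label was set against the other cell types the rule could have taken in. The 17 neutrophil genes summed to 1566 and 800 CPM in NP137 and to 1403 and 1558 CPM in control monocytes, against 844 and 858 CPM and 629 and 627 CPM in C1q macrophages. Cxcl3, a neutrophil-attracting chemokine, made up 520 and 173 CPM of the NP137 sums and 691 and 714 CPM of the control sums. Of these genes 7 were higher in monocytes than in macrophages in all 4 libraries and 1 lower, and the part of neutrophil RNA in this was not tested. Of the receptors and granule genes, Csf3r stood at 64.4 and 37.4 CPM in NP137 monocytes and at 51.8 and 59.5 CPM in control monocytes, against 471 to 718 CPM in the neutrophils of the 4 libraries. Cxcr2, Retnlg, Ngp, Camp and Ly6g were at or below 5.86 CPM in all 4 libraries. The dendritic cell gene Flt3 was at or below 1.67 CPM and Cd209a at or below 6.92 CPM. Cd79a, of B cells, and Cd3d, of T cells, were at 13.1 and 14.0 CPM in NP137 2 and at 0 in the other 3 libraries. As whole lists, the 18 dendritic cell genes summed to 431 and 222 CPM in NP137 and to 139 and 115 CPM in control monocytes. The 16 T and NK cell genes summed to 168 and 158 CPM against 31.7 and 54.0 CPM. Both lists were thus higher in both NP137 libraries, and the part of such cells in this was not tested. Ms4a4c and Cybb, the markers outside the rule, were higher in monocytes than in C1q macrophages in all 4 libraries. The label was kept as the name of what the rule selects.

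RNA of other cells was nevertheless read in these cells. The 16 epithelial and tumour genes summed to 11554 and 1430 CPM in NP137 monocytes and to 2077 and 1522 CPM in control monocytes. Their sums in C1q macrophages were 7640 and 1873 CPM under NP137 and 1826 and 1575 CPM in control. The 12 fibroblast genes summed to 2200 and 10827 CPM in NP137 and to 4190 and 1832 CPM in control monocytes. The 8 B cell genes, with the immunoglobulin genes Igkc and Jchain, summed to 14.9 and 5642 CPM in NP137 and to 28.4 and 9.68 CPM in control monocytes. NP137 1 was thus high in epithelial genes and NP137 2 in fibroblast and immunoglobulin genes. The part of these transcripts in the results below was not tested except where values without YFP-carrying cells or doublets are given.

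The share of monocytes varied more within the groups than between them. Among kept cells it was 0.487% (95% interval 0.387 to 0.606) in NP137 1 and 2.14% (1.93 to 2.37) in NP137 2, against 1.01% (0.837 to 1.21) in control 1 and 1.41% (1.12 to 1.75) in control 2. Both control values lay between the NP137 ones. Intervals are exact Clopper-Pearson and cover counting error only. The mean log2 share was lower under NP137 by a log2 difference of -0.22, with exact 2-sided permutation p = 1. With 6 assignments of 4 libraries that test cannot go below 0.333. Within the pair of files of the same date the log2 ratio of NP137 1 to control 1 was -1.05.

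C1q macrophages, the cells monocytes are set against here, were taken with at least 3 UMIs of Lyz2 and 10 of the C1q genes, and with the same limits on S100a8, S100a9 and Cd3e. These are the macrophages named above. They numbered 659 and 1578 in the NP137 libraries and 2061 and 184 in the control libraries. Monocytes made up 10.9% and 18.7% of monocytes and C1q macrophages together under NP137, and 5.42% and 30.3% in control. Again the control libraries lay on both sides of the NP137 ones, the mean log2 difference was 0.16 and the exact 2-sided permutation p was 1. The same-date pair gave a log2 ratio of 1.02. This sign is the opposite of that for kept cells, and NP137 1 held fewer macrophages than control 1.

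**Figure D1:**
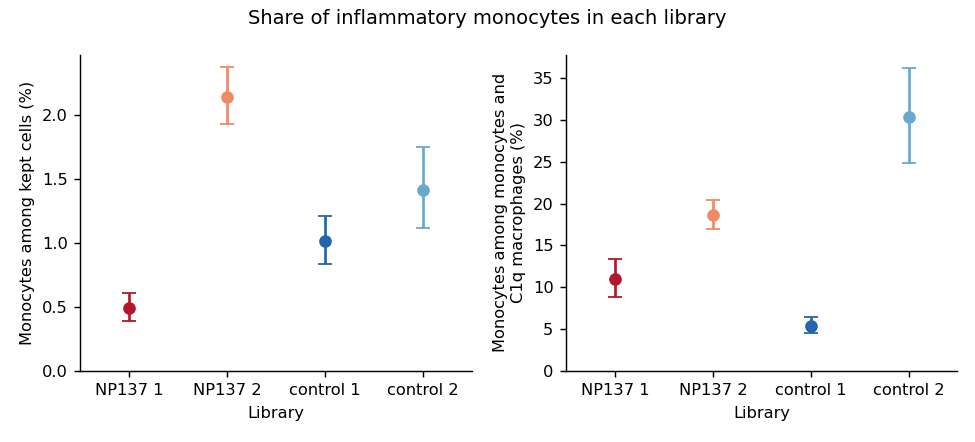
Share of inflammatory monocytes in each library, in percent, among kept cells (left panel) and among monocytes and C1q macrophages (right panel). Points are libraries and bars exact 95% binomial intervals. Among kept cells NP137 1 is lowest at 0.487% and NP137 2 highest at 2.14%, with both controls between them.

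Members differed in which of Chil3 and Ly6c2 they carried. Both were read in 32.1% and 46.1% of NP137 monocytes and in 42.4% and 55.0% of control monocytes. Chil3 without Ly6c2 was read in 65.4% and 40.9% against 56.8% and 36.3% of them, and Ly6c2 without Chil3 in 2.47% and 12.98% against 0.847% and 8.75%. The share with both was lower in NP137 1 and control 1 than in the other library of their group, and those were also the shallower of each pair. At least 20 Chil3 UMIs were held by 12.3% and 4.42% of NP137 and by 33.1% and 32.5% of control members, at the unequal depths given above. The median member held 7 and 4 Chil3 UMIs under NP137 and 12 and 10.5 in control. C1q genes were at 0 UMIs in 90.1% and 68.2% of NP137 and in 78.0% and 91.3% of control members.

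Reads at the 3′ end can be shared between close copies. Over the last 300 transcript bases Ly6c2 and Ly6c1 were identical at 287 positions and Chil3 and Chil4 at 269. Ly6c1 stood at 49.5 and 50.5 CPM in NP137 monocytes and at 1.67 and 15.2 CPM in control ones. How far shared reads alter the Ly6c2 level was not tested, and the Ly6c1 level does not measure it. Chil4 was at 0 in the monocytes of all 4 libraries.

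Set against C1q macrophages of the same library, monocytes were higher in classical monocyte genes, which is a description because the rule separates these classes. Of 5532 genes with at least 20 CPM in monocytes, 1016 (18.4%) were higher in all 4 libraries and 754 (13.6%) lower. Of the 22 classical monocyte genes 20 were higher in all 4 and 0 lower. Plac8, a small cysteine-rich protein of myeloid cells, stood at 1913 and 1597 CPM in NP137 monocytes and at 1478 and 2147 CPM in control monocytes. In macrophages it stood at 53.4 and 351 CPM under NP137 and at 25.0 and 60.3 CPM in control. Coagulation factor X, encoded by F10, stood at 253 and 107 CPM in NP137 and at 287 and 239 CPM in control monocytes, against 25.8 and 22.6 CPM and 34.2 and 13.2 CPM in the macrophages of the same libraries.

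Receptors for inflammatory signals were also among the genes of largest difference. Ltb4r1, a receptor for leukotriene B4, had 183 and 98.2 CPM in NP137 and 125 and 136 CPM in control monocytes, and at most 29.7 CPM in macrophages. Trem1, which amplifies inflammatory signalling, had 178 and 124 CPM against 254 and 275 CPM in monocytes, and at most 64.3 CPM in macrophages. Clec4e, a C-type lectin that senses mycobacterial glycolipid, had 451 and 323 CPM against 593 and 498 CPM, and at most 110 CPM in macrophages. Ifitm6, Mcemp1, Sirpb1c, Ptgs2 and the matrix genes Vcan and Thbs1 were higher in monocytes in all 4 libraries too. Of 17 adhesion and homing genes 11 were higher than in macrophages in all 4 libraries and 3 lower.

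The secretory profile was mixed. Il1b, the interleukin-1 beta gene, stood at 2755 and 3526 CPM in NP137 and at 4990 and 3728 CPM in control monocytes, above the 2342 and 1487 CPM and the 1920 and 1031 CPM of the macrophages. The neutrophil chemoattractant Cxcl2 was the highest chemokine gene, at 12669 and 7661 CPM in NP137 and at 13949 and 14641 CPM in control monocytes. Of the 20 chemokine ligands 3 were higher than in macrophages in all 4 libraries and 10 lower. Ccl8, a monocyte chemoattractant, stood at 14.9 and 77.9 CPM in NP137 and at 1.67 and 1.38 CPM in control monocytes, against 556 and 919 CPM and 255 and 112 CPM in macrophages.

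Genes that macrophages gain were lower. Of the 32 macrophage maturation genes 26 were lower than in macrophages in all 4 libraries and 0 higher, of 12 MHC class II genes 8 and 0, and of 23 lysosome and granule genes 17 and 0. Apoe, a lipid carrier, stood at 2755 and 5033 CPM in NP137 and at 4158 and 5178 CPM in control monocytes, against 10449 to 18416 CPM in the macrophages. Pf4, a platelet-type chemokine, stood at 24.8 and 180 CPM in NP137 and at 142 and 252 CPM in control monocytes, against 617 to 937 CPM in macrophages. Folr2, a folate receptor of resident macrophages, was at 0 and 81.5 CPM in NP137 and at 8.35 and 22.1 CPM in control monocytes. NP137 1 was the lowest library for all 3 genes, and for a gene at 0 the limit of 3 UMIs there comes to 14.9 CPM. The summed C1q genes, held low by the rule, are not a result.

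**Figure D2:**
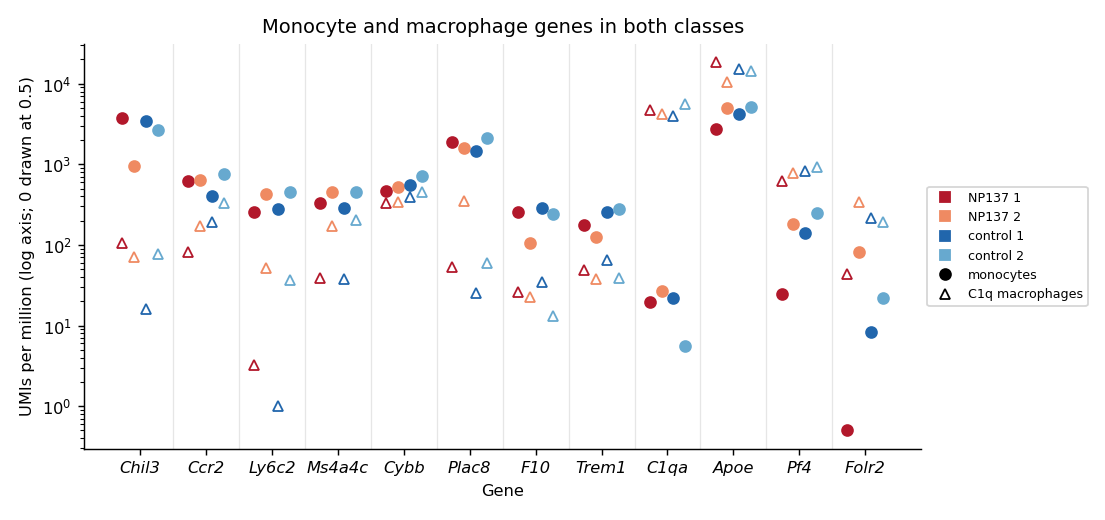
Level of 12 genes in CPM (log axis) in each library, with filled circles for monocytes and open triangles for C1q macrophages. The first 5 are the markers, of which Cybb differs least between the classes, and Apoe, Pf4 and Folr2 lie lower in monocytes.

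Patrolling monocyte genes were near the levels in macrophages, with 4 of 14 higher and 1 lower in all 4 libraries. That 1 gene was Cx3cr1, the fractalkine receptor, at 4.95 and 53.2 CPM in NP137 and at 16.7 and 107 CPM in control monocytes, against 110 to 286 CPM in macrophages. Of the chemokine receptors 5 of 16 were higher and 3 lower. Adora2b, an adenosine receptor that netrin-1 has been reported to bind, stood at 49.5 and 41.4 CPM in NP137 and at 38.4 and 60.9 CPM in control monocytes, and at 6.45 to 12.5 CPM in macrophages. Of the other netrin genes, Unc5b had 4.95 and 12.2 CPM in NP137 and 11.7 and 15.2 CPM in control monocytes, and Dcc, Ntn5, Unc5a and Unc5d were at 0 in all 4. Ntn1, the gene of netrin-1, stood at 0 and 2.25 CPM in NP137 and at 10.0 and 16.6 CPM in control monocytes, without overlap. These levels rest on 0 and 5 UMIs against 6 and 12 UMIs, and Ntn1 was not tested in monocytes. Cell-cycle genes were lower than in macrophages in all 4 libraries for 18 of 30 and higher for 0.

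The 10 genes most concentrated in the members against all other kept cells were Chil3, Ccr2, Ms4a4c, Gm9733, Ly6c2, Ms4a6c, Fcgr1, Sirpb1c, Ifi209 and Cybb. The rule used Chil3, Ccr2 and Ly6c2, so their place in this ranking is not a result. Gm9733, a gene with no name beyond its model number, stood at 59.5 and 47.7 CPM in NP137 and at 65.1 and 118 CPM in control monocytes, and at most at 7.54 CPM in macrophages. Fcgr1, a high-affinity receptor for immunoglobulin G, stood at 203 and 288 CPM in NP137 and at 219 and 264 CPM in control monocytes. In macrophages Fcgr1 stood at 233 and 237 CPM under NP137 and at 177 and 283 CPM in control, so its levels in the 2 classes overlapped.

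NP137 monocytes differed from control monocytes in 1 gene at an adjusted p under 0.05. Of 6583 genes tested by edgeR's quasi-likelihood test on summed UMIs 1 (0.0152%) passed, and 247 (3.75%) had an unadjusted p under 0.05, 141 higher (2.14%) and 106 lower (1.61%). DESeq2 called 10 genes, 4 higher and 6 lower. H19 (ENSMUSG00000000031, chr7:142575529-142578143, minus strand) was that gene. It is a long noncoding RNA expressed from the maternal chromosome. It stood at 4.95 and 6.76 CPM in NP137 monocytes and at 265.5 and 189.5 CPM in control monocytes, with no overlap. H19 fell by 5.14 on the log2 scale under NP137, with a standard error of 0.44 and an edgeR adjusted p of 0.0068.

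Few cells carried H19. It was read in 1 of 81 and 1 of 362 NP137 monocytes and in 40 of 118 and 12 of 80 control monocytes. These are 1.23% and 0.276% against 33.9% and 15%, and C1q macrophages gave 5.16% and 1.14% under NP137 and 39.3% and 16.3% in control. No monocyte share was above the macrophage share of its library. The level in CPM was higher in monocytes than in macrophages in 3 of the 4 libraries, and no order is read from the shares. NP137 monocytes held 16 UMIs in all, 15 of them in a single cell, and control monocytes held 296. In YFP cells the transcript stood at 141 and 4.35 CPM under NP137 and at 580 and 187 CPM in control. C1q macrophages had 73.2 and 3.59 CPM under NP137 and 236 and 17.4 CPM in control. Without the members that carried a YFP UMI, 43 control UMIs were left against 16 under NP137, and too few remained for H19 to be tested. H19 then stood at 7.26 and 7.55 CPM in NP137 and at 80.86 and 17.96 CPM in control monocytes, with no overlap. With Scrublet doublets removed, 1 NP137 UMI stood against 116 control UMIs and H19 no longer passed (edgeR adjusted p = 0.9996). No gene passed in either of those fits, nor when the rule was applied at equal depth, where 0 of 4437 genes passed by edgeR and 119 had an unadjusted p under 0.05. There H19 had too few UMIs to be tested. It passed in 11 of the 12 alternatives in which it was tested. The count of genes called was 177 without NP137 1 and 65 without NP137 2.

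The other genes named by smallest p did not pass by edgeR with all 4 libraries. DESeq2 called Aqp1 (adjusted p = 0.000257), Stmn2 (adjusted p = 0.000257), AA467197 (adjusted p = 0.000528) and G0s2 (adjusted p = 0.0263) among them. By edgeR all 4 also passed with no filter on low counts and without NP137 1, and Stmn2 passed with a replicate block (adjusted p = 0.0409). Lower in both NP137 libraries were Aqp1, a water channel, at 0 and 4.50 CPM against 120 and 76.1 CPM, Slco2a1, a prostaglandin transporter, at 4.95 and 6.31 CPM against 40.1 and 70.6 CPM, and Stmn2, a tubulin-binding protein of neurons, at 0 and 0 CPM against 125 and 41.5 CPM. Atp2b4, a calcium pump of the plasma membrane, and AA467197, a protein-coding gene listed here under its clone name, were lower as well. In YFP cells Aqp1 stood at 6.19 and 4.39 CPM under NP137 and at 503 and 442.5 CPM in control, and Stmn2 at 45.6 and 13.1 CPM against 459 and 348 CPM. Higher were Mmp10, a stromelysin, at 29.7 and 60.4 CPM in NP137 against 1.67 and 2.77 CPM in control monocytes, Lamb3, a laminin chain of basement membranes, at 49.5 and 34.2 CPM against 6.68 and 4.15 CPM, and G0s2, an inhibitor of triglyceride breakdown that neutrophils carry at high level, at 89.2 and 56.3 CPM against 8.35 and 1.38 CPM. Neutrophils numbered 1044 and 2438 in the NP137 libraries and 573 and 154 in the control libraries, and carried G0s2 at 2030 to 6040 CPM. S100a9, capped by the rule, stood at 193 and 154 CPM in NP137 and at 51.8 and 24.9 CPM in control monocytes. The edgeR adjusted p of these genes lay between 0.116 for Aqp1 and 0.671. With Scrublet doublets removed Mmp10 stood at 15.2 and 8.32 CPM in NP137 and at 1.94 and 3.05 CPM in control monocytes, with 14 NP137 UMIs where all members held 140. Lamb3 then stood at 0 and 15.95 CPM in NP137 and at 5.83 and 3.05 CPM in control monocytes, and without members with a YFP UMI at 0 and 13.1 CPM against 7.58 and 3.27 CPM. The groups overlapped for Lamb3 in both cases. Slco2a1, with doublets removed, stood at 7.62 and 1.39 CPM against 13.6 and 9.16 CPM. The other genes of this paragraph kept groups that did not overlap in both cases. Ube2c and Top2a, also named by smallest p, are given below and overlapped with doublets removed.

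**Figure D3:**
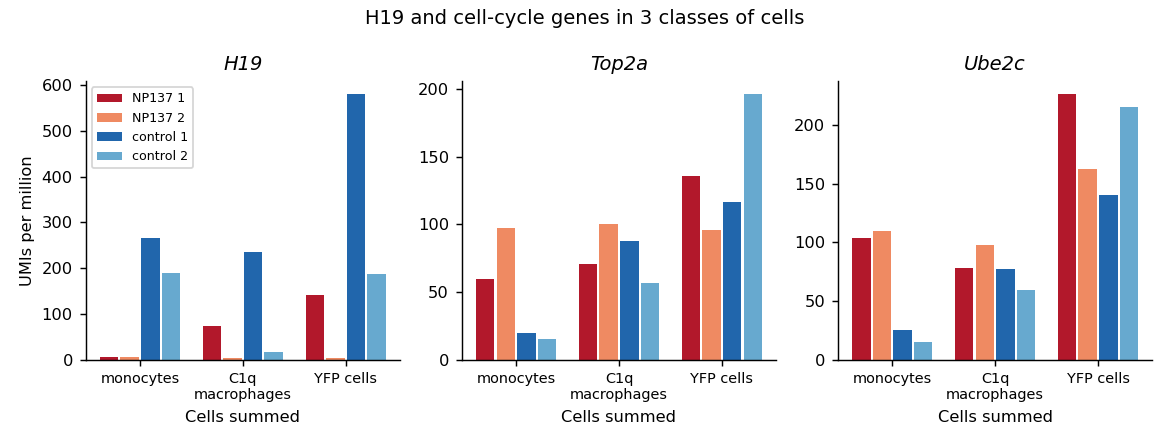
H19, Top2a and Ube2c in CPM, summed over monocytes, C1q macrophages and YFP cells of each library; bars are libraries and start at 0. H19 lies at or below 6.76 CPM in NP137 monocytes against 189.5 and 265.5 CPM in control monocytes. Top2a and Ube2c lie between 15.2 and 25.05 CPM in control monocytes and at 59.5 CPM or more in NP137 monocytes.

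Cell-cycle genes showed the largest median shift of the lists with at least 5 tested members, although 0 of 21 passed. All but 1 of the 21 lay above 0, with a median log2 fold change of 1.84 against 0.02 over all 6583 genes. Unadjusted, 12 were higher at p under 0.05 (2.14% of all genes were), and 15 had higher values that did not overlap (16.8% of all genes). The filter on low counts keeps a gene expressed in either group alone, so low members could enter through the group where they were high. These counts are therefore a description. With no filter 30 members were fitted, 29 lay above 0 and the median was 1.87. Ube2c, which drives mitotic protein degradation, stood at 104 and 109 CPM in NP137 and at 25.05 and 15.2 CPM in control monocytes, and Top2a, a topoisomerase of dividing cells, at 59.5 and 97.3 CPM against 20.04 and 15.2 CPM. Ccnb1, a mitotic cyclin, stood at 34.7 and 27.5 CPM against 3.34 and 2.77 CPM. For all 3 both NP137 libraries lay above both control libraries. The replication genes Pcna and Mcm2 overlapped, Pcna at 44.6 and 16.7 CPM against 18.4 and 31.8 CPM.

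The cell-cycle shift depended on which cells were summed. The list came to 897 and 1218 CPM in NP137 and to 449 and 318 CPM in control monocytes. With Scrublet doublets removed the sums were 267 and 943 CPM against 420 and 327 CPM, so that the groups overlapped, and the median of the 11 members still tested was 0.82. The median was 0.99 without NP137 2. With the rule applied at equal depth 3 members were tested, with a median of 0.11, and the sums were 280 and 471 CPM against 436 and 341 CPM. Without members that carried a YFP UMI they were 660 and 1082 CPM against 417 and 313 CPM, and did not overlap. Thinned to 2000 UMIs, 15.2% and 9.20% of NP137 and 6.36% and 2.50% of control monocytes held at least 3 UMIs of the list, which in NP137 1 were 5 of 33 cells. Unthinned the shares were 8.64% and 22.4% against 22.03% and 47.5%, at unequal depth. C1q macrophages, thinned alike, gave 24.2% and 21.3% under NP137 and 15.9% and 16.6% in control, so all 4 monocyte shares lay below those of the macrophages. No cycling is read from these shares.

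Genes of monocyte identity mostly lay slightly below 0 in NP137 monocytes, and none passed. Of 22 classical monocyte genes 19 were below 0, with a median log2 fold change of -0.46 (-0.21 with doublets removed), and 8 had lower values that did not overlap (14.9% of all genes did). Vcan, a matrix proteoglycan, stood at 168 and 211 CPM in NP137 and at 321 and 344 CPM in control monocytes, and Thbs1, thrombospondin-1, at 1229 and 588 CPM against 1969 and 1419 CPM. Ly6a was above 0, at 342 and 870 CPM against 107 and 248 CPM. Of 13 patrolling genes 12 lay below 0 with a median of -0.62. Without control 2 that median was 0.20. Of 16 adhesion and homing genes 15 lay below 0, with a median of -0.27. Cd44, a hyaluronan receptor, stood at 535 and 587 CPM against 915 and 1130.3 CPM, and the integrin gene Itgam at 164 and 224 CPM against 282 and 408 CPM. For both genes every NP137 value lay below every control value.

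Inflammatory mediators also lay mostly below 0. Of 19 tested cytokine and mediator genes 14 lay below 0, with a median of -0.48, and 0 passed. Of all 6583 tested genes 3206 lay below 0. Lower values that did not overlap were found for 8 of the 19 (14.9% of all genes). The median was -0.21 at equal depth. Il1b, given above, was lower in both NP137 libraries, and Osm, the oncostatin M gene, stood at 263 and 302 CPM in NP137 and at 569 and 418 CPM in control monocytes. Il1rn, the interleukin-1 receptor antagonist, stood at 79.3 and 168 CPM against 232 and 267 CPM, so antagonist and cytokine were both lower in NP137. Of 24 pattern recognition genes 18 lay below 0 with a median of -0.31. That median was -0.04 without control 2, with 12 of 24 above 0, -0.05 with doublets removed and -0.06 at equal depth. Tlr2, a receptor for bacterial lipopeptides, stood at 168 and 142 CPM in NP137 and at 262 and 338 CPM in control monocytes. All 7 tested genes of colony-stimulating factors and their receptors lay below 0 with a median of -0.52 (-0.31 without NP137 2), among them Csf1r, the receptor that monocytes and macrophages need, at 243 and 336 CPM against 349 and 486 CPM. None of these genes passed.

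**Figure D4:**
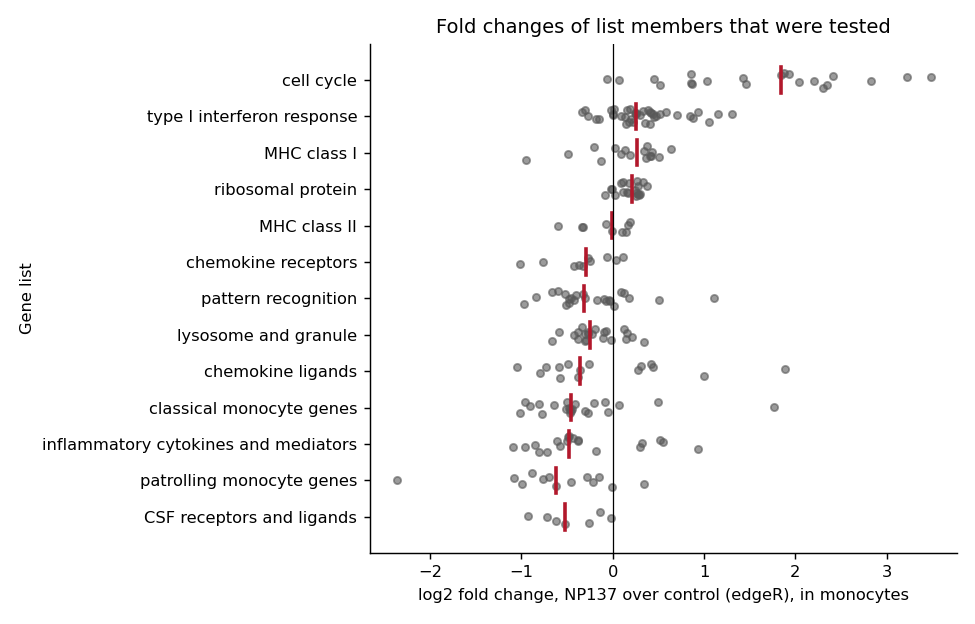
Log2 fold change of NP137 over control (edgeR) in monocytes for the tested members of 13 gene lists; points are genes and red bars list medians. Cell-cycle genes lie furthest to the right with a median of 1.84, and monocyte identity and cytokine lists lie left of 0 with medians between -0.46 and -0.62.

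Interferon-response genes differed more between the libraries of a group than between the groups. The 45 type I interferon genes summed to 2894 and 6849 CPM in NP137 and to 2934 and 5953 CPM in control monocytes. In C1q macrophages they summed to 2240 and 4889 CPM under NP137 and to 2056 and 5401 CPM in control. Of these 45 genes 41 were lower in NP137 1 and control 1, whose files share a date, than in NP137 2 and control 2, as were 23.3% of all tested genes. Ifi27l2a, an interferon-induced membrane protein, stood at 1055 and 2105 CPM in NP137 and at 934 and 1696 CPM in control monocytes, and the transcription factor Irf7 at 44.6 and 250.5 CPM against 76.8 and 198 CPM. For NP137 over control 33 of 39 tested genes lay above 0 with a median of 0.26, none passed and none had an unadjusted p under 0.05. The median was -1.29 without NP137 2 and 1.17 without control 2. Of 17 MHC class I genes 11 were split likewise, with B2m at 951 and 2425 CPM against 1146 and 2696 CPM. Median monocyte depth was close in NP137 2 and control 1, at 4493 and 4228.5 UMIs, while their type I interferon sums were 6849 and 2934 CPM. Thinned to 2000 UMIs, at least 5 UMIs of the list were held by 48.5% and 85.6% of NP137 and by 71.8% and 82.5% of control monocytes. In macrophages these shares were 48.6% and 73.6% under NP137 and 37.9% and 70.7% in control. In both classes NP137 1 and control 1 thus gave lower shares than NP137 2 and control 2. The files of NP137 2 and control 2 do not share a date, and the cause of the split was not tested. Unthinned, the monocyte shares were 59.3% and 98.9% under NP137 and 92.4% and 100% in control.

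MHC class II genes did not separate the groups. Of 9 tested genes 4 lay above 0 and 5 below, with a median of -0.00. H2-Ab1 stood at 1670 and 2637 CPM in NP137 and at 1713 and 2272 CPM in control monocytes. Of the ribosomal protein genes 17 of 20 lay above 0 with a median of 0.21. That median was 0.02 without NP137 1 and 0.01 at equal depth, with 11 of 20 above 0 in each case, and 0.37 without NP137 2. For the 13 mitochondrially encoded genes the median was -0.11.

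The NP137 effect was then compared between monocytes and C1q macrophages in 1 model with a term for each library. Of 10806 genes 25 (0.231%) had an effect that differed at an edgeR adjusted p under 0.05, 11 higher (0.102%) and 14 lower (0.13%) in monocytes than in macrophages, and DESeq2 called 1. An unadjusted p under 0.05 was found for 4.78% of genes, 2.45% higher and 2.32% lower. The cell-cycle genes Ube2c, Top2a, Cenpf and Hist1h1b were among the 25. Top2a stood at 70.5 and 101 CPM in NP137 and at 87.6 and 56.5 CPM in control macrophages. The groups overlapped there, while in monocytes they did not before doublets were removed. The log2 difference of the effects was 1.81 with a standard error of 0.39 (edgeR adjusted p = 0.018). Ccl24, an eosinophil chemoattractant, stood at 24.8 and 93.7 CPM in NP137 and at 26.7 and 9.68 CPM in control monocytes, against 30.9 and 39.0 CPM and 103 and 67.8 CPM in macrophages (difference 3.13, standard error 0.45, edgeR adjusted p = 0.00011).

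Genes with a lower effect in monocytes included the secreted proteins Slpi and Lcn2. Slpi, a protease inhibitor, stood at 773 and 595 CPM in NP137 and at 718 and 292 CPM in control monocytes. In macrophages it stood at 198 and 128 CPM under NP137 and at 63.4 and 18.9 CPM in control (difference -1.70, standard error 0.25, edgeR adjusted p = 9.6e-05). Lcn2, an iron-sequestering lipocalin, stood at 99.1 and 45.0 CPM against 48.4 and 51.2 CPM in monocytes and at 28.1 and 34.2 CPM against 5.67 and 7.54 CPM in macrophages. Fth1, the ferritin heavy chain, was the most abundant of the group, at 22009 and 12382 CPM against 22269 and 20107 CPM in monocytes and 22336 and 16067 CPM against 16608 and 14241 CPM in macrophages. For Slpi and Lcn2 both NP137 macrophage values lay above both control ones, while the monocyte values overlapped. Actg2, a smooth-muscle actin, had 24.8 and 45.0 CPM against 61.8 and 0 CPM in monocytes, and 18.4 and 43.2 CPM against 2.16 and 0.471 CPM in macrophages. Of the 25 genes 2 were called without NP137 2 and 7 with doublets removed.

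**Figure D5:**
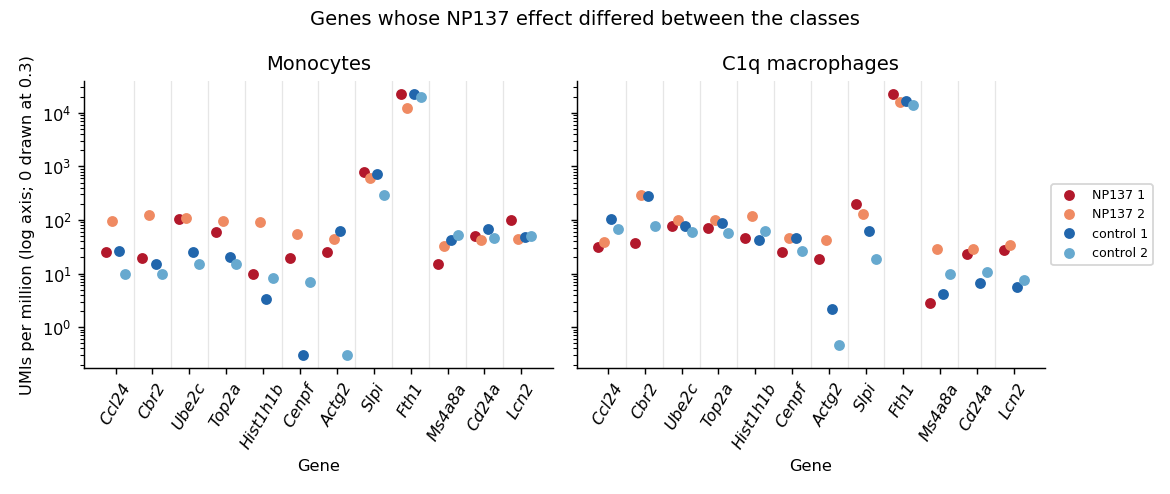
Level in CPM (log axis) of the 12 genes of smallest p for a difference in NP137 effect, in monocytes (left panel) and C1q macrophages (right panel); points are libraries. The first 6 genes, from Ccl24 to Cenpf, have a higher effect in monocytes, and the last 6, from Actg2 to Lcn2, a higher effect in macrophages.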

How the data were processed

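Single-cell 3′ RNA libraries of 2 NP137 and 2 control samples were used. UMI counts per gene and barcode were deposited by the authors; per the file headers the 10x software was version 3.0.2, and the genome build mm10 and Seurat 3.1.5 are named in the submitters' processing notes. The rule by which the authors called cells is not given in the sources used here, and the notes on chemistry name both V2 and V3. Files held 31053 genes and a YFP row. Of genes listed for this work 4 were not matched and were not analysed here. One further allele of the mouse line is not reported here.

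Barcodes were dropped below 200 genes or from 20% mitochondrial UMIs upward, and the monocyte rule was applied to raw counts. Raw counts were summed per library over the members and tested with edgeR 4.0.16 (TMM, filterByExpr, robust quasi-likelihood fit, Benjamini-Hochberg over all genes tested, adjusted p under 0.05, 2-sided) in R 4.3.3. The NP137 effect was compared between classes by an interaction with the library as block. For shares, all 6 ways to divide the libraries gave an exact permutation test, and each share has an exact 95% binomial interval. Levels are plain CPM without TMM. Scrublet scores in scanpy 1.11.5 were used only for an alternative, so doublets remain in the main sums. Scripts were tested on simulated data. Alternatives were DESeq2 1.42.0, its size factors, no filter, each library left out, the replicate block, a strict cell filter, doublets removed, the rule at equal depth, tighter C1q and S100 limits, and no YFP UMI. The pair of libraries with the same file date was added after seeing the data.

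The members and gene lists were chosen with earlier results of these data known. Genes named were those of smallest p or largest change with non-overlapping groups and a mean of at least 20 CPM, the markers and rule genes, the 3 list members of smallest p and of highest level, the 15 genes of largest consistent difference from macrophages in each direction, the 6 of smallest p for a difference in effect, and the 10 most concentrated in the members. Other genes were chosen after their values were seen. Depth limits NP137 1 most, where 3 UMIs come to 14.9 CPM.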

Additional observations from a re-analysis of the deposited data

Results flagged for a closer look

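The NP137 effect differed between monocytes and C1q macrophages, by edgeR's test of the difference, for the 12 genes named by smallest p. The log2 difference was 3.13 for Ccl24, 2.42 for Cbr2, a carbonyl reductase, 1.90 for Ube2c, 1.81 for Top2a, 2.46 for the histone gene Hist1h1b and 3.30 for the kinetochore gene Cenpf. It was -4.67 for Actg2, -1.70 for Slpi, -0.78 for Fth1, -2.60 for Ms4a8a, -2.23 for Cd24a, a surface glycoprotein, and -2.23 for Lcn2. Cbr2 stood at 19.8 and 122 CPM in NP137 and at 15.03 and 9.68 CPM in control monocytes, with both NP137 values above both control values. Hist1h1b at 9.91 and 90.5 CPM in NP137 and at 3.34 and 8.30 CPM in control monocytes, and Cenpf at 19.8 and 55.9 CPM against 0 and 6.92 CPM, did not overlap between the groups, but rest on few UMIs in NP137 1. The cause of these differences was not tested.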

How the results depend on the processing

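Genes called between NP137 and control monocytes (main result 1) numbered 10 with DESeq2, 93 with no filter on low counts, 4 with a replicate block, and 0 with doublets removed, 0 at equal depth and 0 with no YFP UMI, where 99, 119 and 208 genes had an unadjusted edgeR p under 0.05. Leaving out one library gave 3 to 177. Genes whose effect differed between classes (main result 25) numbered 1 with DESeq2, 56 with no filter, 14 with doublets removed and 52 at equal depth, and 17 to 82 with one library left out. The log2 ratio of the monocyte share among kept cells ranged between -1.29 and 0.84 with one library left out, and was positive without NP137 1 and, at 0.02, without control 2. Among monocytes and C1q macrophages it ranged between -1.08 and 1.40, and was negative without control 1 and, at -0.23, without NP137 2. With one library left out the log2 fold change ranged between -1.74 and 0.32 for Chil3, -0.29 and 0.63 for Ccr2, -0.50 and 0.28 for Ly6c2 and -0.24 and 0.42 for Ms4a4c. Signs turned for Ly6c2 with doublets removed (0.21), at equal depth (0.068) and with S100a8 and S100a9 of at most 3 (0.055), and for Bgn with doublets removed (-0.43). For the difference in effect they turned at equal depth for Ube2c (-0.071), Hist1h1b (-1.66) and Actg2 (4.38), and Actg2 ranged between -4.82 and 3.93 with one library left out. The cause was not tested. Among single genes 617 values kept direction and side of the threshold, 58 came past it, 42 fell short of it and 14 changed sign. The labels pair no samples by number, though files of NP137 1 and control 1 share a date. The deviations of NP137 1 and control 1 had a correlation of 0.14 over 6583 genes. For the shares the replicate block gave -0.22 and 0.16, which equal the values without it by construction and are no check of the pairing.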
